A study of Mus musculus with 12 samples.

Results

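The comparison set mouse skin labelled TSeL+L against skin labelled TSeL, and so asked what differed when L was added to TSeL. Of the 12 samples of the study, 6 carry these labels, 3 each, and the 3 samples labelled PBS (phosphate-buffered saline) gave the control range. The other 3, labelled TL+L, entered the scaling and are given beside the results once. All were skin from 8 weeks old BALB/C mice, an albino inbred strain. What TL, TSeL and L stand for, how and for how long they were given, and whether samples are separate animals is not stated in the labels.

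The members were chosen by column code. The 3 count columns coded TSL were read as TSeL+L and the 3 coded TS as TSeL, since the first code adds an L to the second as the labels do, and every value below rests on that reading. All 3 TSL columns carry the number 1 and all 3 TS columns the number 2, with suffixes that the labels do not explain. Columns of 1 code were near-repeats of each other. Set against sampling noise, the chi-square of a gene had a median of 1.23 to 1.29 times chance for pairs of TSeL+L columns and 1.12 to 1.17 times for TSeL pairs, whereas PBS pairs reached 7.42 to 13.9 times. Each set was therefore averaged and counted as 1 library, and the comparison is 1 library against 1. It has no replicate check and no test, so sizes are given and each value is placed below, within or above the lowest to highest PBS value.

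Skin RNA is a mixture. Hair follicles cycle between rest and growth, and the keratins, keratin-associated proteins and trichohyalin that build the hair shaft and its inner root sheath are made in growing follicles. Between follicles, basal keratinocytes move outward and switch to the suprabasal keratins, filaggrin and the proteins of the cornified envelope, while beneath the fat lies a sheet of striated muscle, the panniculus carnosus, whose fibres carry the sarcomere genes. Neutrophils, macrophages and mast cells add transcripts of their own.

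Columns held 16630581 to 17318157 estimated counts over 18858 genes, of which 15791 passed the filter. Levels are CPM, the share of a library's counts scaled by TMM (a trimmed-mean normalization), and ratios are TSeL+L over TSeL on log2 CPM with a prior count of 2. Ratios given with an exact interval, and lower bounds against a floor of 3 counts, use scaled counts without that prior count. The skin keratin gene Krt14, a basal keratinocyte marker, stood at 1854 CPM for TSeL+L and at 2439 for TSeL, against 3189, 4225 and 2570 CPM in PBS, and with the dermal collagen gene Col1a1 given further on it matched the labelled tissue. PBS replicate 3 had more hair transcripts than the other PBS samples, at 0.208% of its counts against 0.0205% and 0.00243%.

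At least 2-fold higher in TSeL+L were 1117 genes (7.07% of those kept), and 1426 (9.03%) were at least 2-fold lower. The largest ratios lay on the higher side: 163 genes were at least 16-fold higher and 20 at least 16-fold lower. Together 16.1% of genes differed by 2-fold or more between TSeL+L and TSeL, against 4.32%, 7.57% and 8.02% between pairs of PBS samples. The median absolute log2 ratio was 0.37 between TSeL+L and TSeL and 0.20, 0.21 and 0.27 between PBS pairs. Scaled by library totals in place of TMM, the median over all genes moved by 0.34 on the log2 scale and the counts became 1817 higher and 869 lower.

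Position against PBS separated 2 kinds of difference. Of the 1117 higher genes, 491 were above the PBS range in TSeL+L and within it in TSeL, and 339 were above it in TSeL+L and below it in TSeL. Of the 1426 lower genes, 530 were within the PBS range in TSeL+L and above it in TSeL, so that TSeL and not TSeL+L was the library outside the controls. A further 339 were below PBS in TSeL+L and above it in TSeL, and 212 were below it in both. Over all genes kept, 35.9% of TSeL+L values and 37.5% of TSeL values lay above the PBS range, and 36.4% and 33.4% lay below it, so a position outside a range of 3 samples was common. Without PBS replicate 3 the genes past 2-fold on opposite sides of PBS numbered 1089, against 678 with it.

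**Figure D1:**
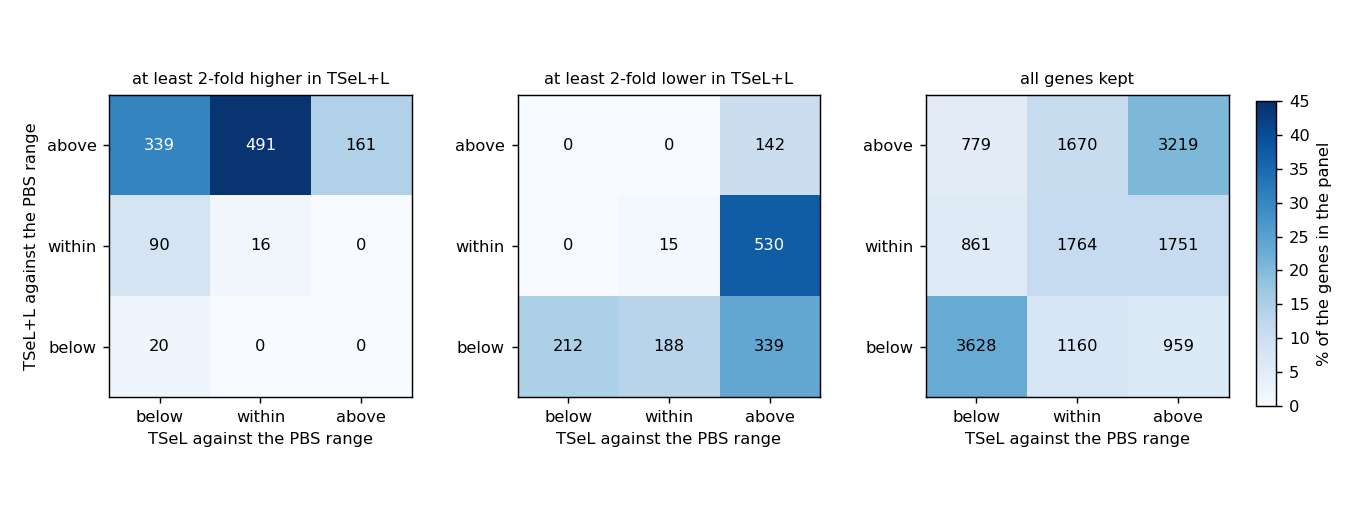
Number of genes by position of TSeL+L (rows) and TSeL (columns) below, within or above the range of 3 PBS samples, for genes at least 2-fold higher in TSeL+L, at least 2-fold lower, and all genes kept; colour gives the percentage of each panel's genes. The fullest cell of the first panel (491) has TSeL+L above PBS and TSeL within it, and that of the second (530) has TSeL+L within PBS and TSeL above it.

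Genes were grouped in 49 lists by cell type or pathway. The plot of list medians shows both libraries against PBS, from hair genes at the top to muscle genes at the bottom.

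**Figure D2:**
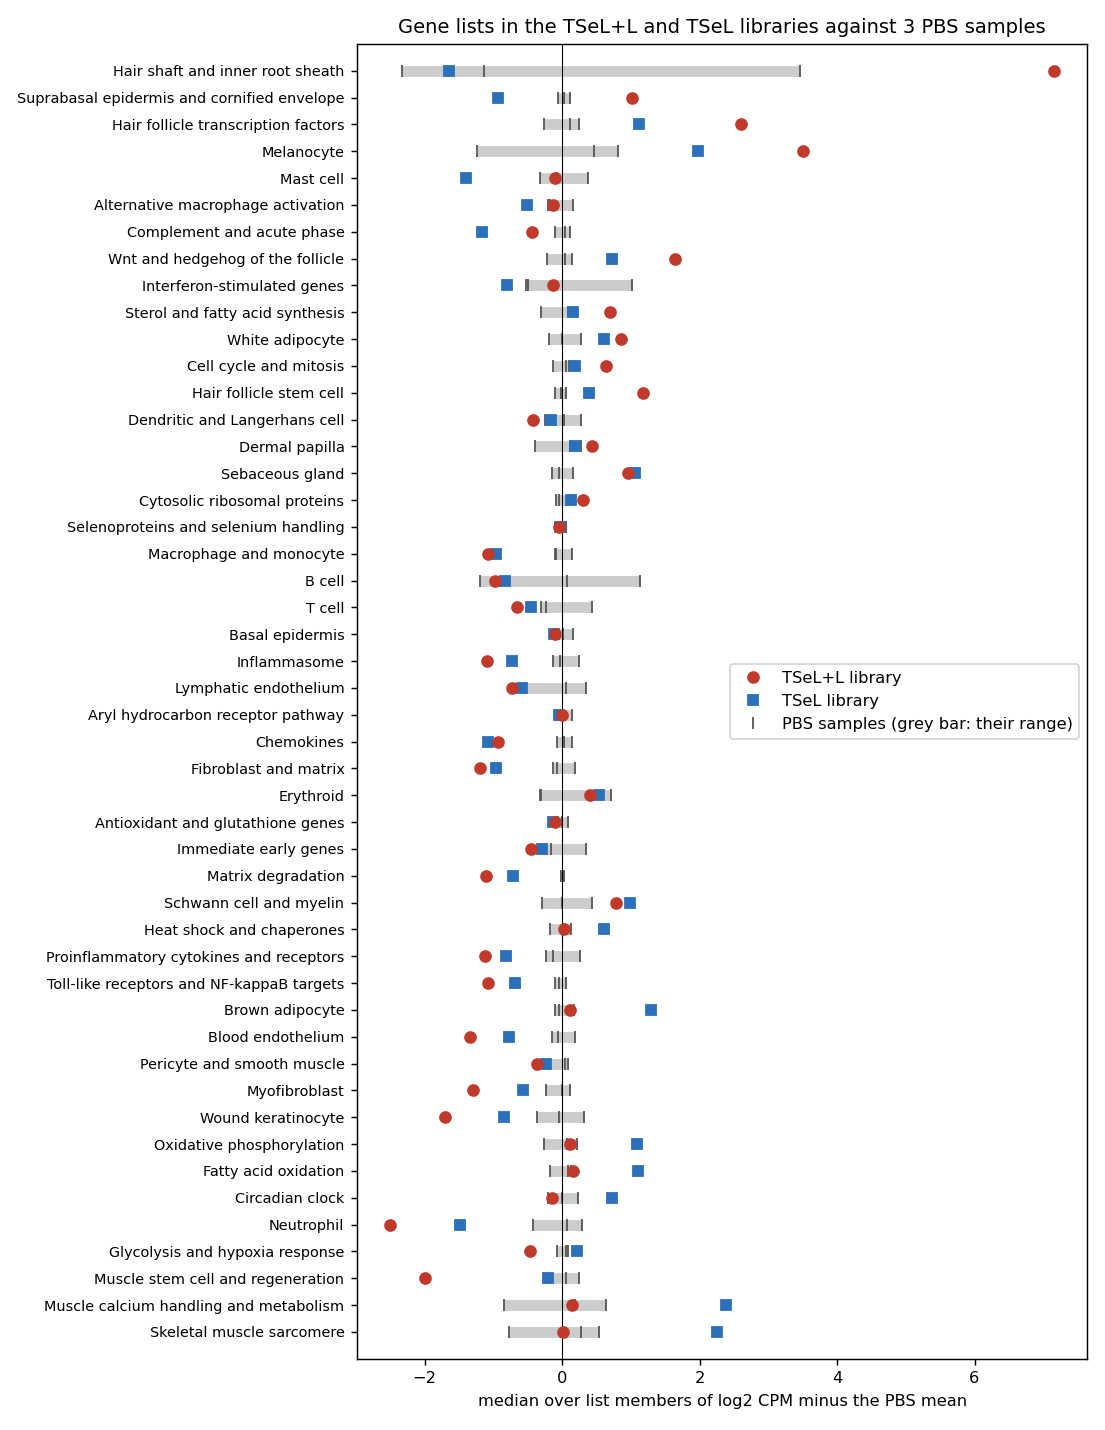
Median over list members of log2 CPM minus the PBS mean, for 48 gene lists ordered by the TSeL+L over TSeL ratio; red circles are TSeL+L, blue squares TSeL, and grey bars with ticks the 3 PBS samples. In the hair shaft list TSeL+L lay at 7.16 and TSeL at -1.64, and in the sarcomere list TSeL+L lay at 0.01 and TSeL at 2.26.

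Genes of the hair shaft and inner root sheath differed most. All 28 members kept were at least 2-fold higher in TSeL+L, with a median log2 ratio of 8.57, against -0.07 over all genes. The median was 8.51 with the 13 members at 0 counts in TSeL set to their lower bounds. The list took 2.19% of counts in TSeL+L and 0.0146% in TSeL, against 0.0205%, 0.00243% and 0.208% in PBS. All 28 were above the PBS range in TSeL+L, while in TSeL 22 were within it and 6 below. Fewer cells of a type and less RNA per cell cannot be told apart in bulk skin, here or in the lists that follow.

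Tchh (NCBI gene 99681) encodes trichohyalin, which hardens the inner root sheath. It had 5320, 5510 and 5193 CPM in the TSeL+L columns, against 14.0, 15.4 and 14.5 CPM in the TSeL columns and 53.9, 10.1 and 597 CPM in PBS, a 363-fold ratio. Every TSeL+L column was above PBS replicate 3, the highest control. Krt71 (56735), an inner root sheath keratin, stood at 3856, 3924 and 3848 CPM in TSeL+L, against 12.2, 13.1 and 11.7 CPM in TSeL and 33.8, 1.41 and 446 CPM in PBS, a 310-fold ratio. Krt25 (70810), its type I partner class, was 80.4-fold higher. The smallest ratio of the list was that of Krt28, at 360 CPM in TSeL+L and at 30.8 CPM in TSeL, an 11.6-fold difference.

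Of these 28 genes 13 had 0 counts in the TSeL average, while other shaft keratins were detected there: Krt35 had 528 CPM in TSeL+L and 16.6 CPM in TSeL, against 11, 0.369 and 53.3 CPM in PBS, a 31.6-fold ratio, and Krt81, Krt83 and Krt86 had 18, 21 and 19 counts in TSeL. Krt33a (71888), a hair cortex keratin, had 11768 counts in TSeL+L and 0 in the TSeL average, which makes it at least 3069-fold higher against a floor of 3 counts. One TSeL column held a read of it, at 0.0694 CPM. Krtap8-1 was at least 2089-fold higher, Krt34 (16672) at least 1594-fold, Krtap7-1 at least 1543-fold and Krt33b at least 1276-fold. PBS replicates 1 and 2 were also near 0 for Krt34, at 0 and 0.184 CPM, while replicate 3 had 20.6 CPM and the TSeL+L columns 344, 334 and 324 CPM. Krt31, with 7534 counts in TSeL+L and 2 in TSeL, had a ratio of 2948 with an exact 95% counting interval of 816 to 24344. Among the highest ratios outside the list were Calhm4, a member of a channel family, at least 829-fold higher, Gprc5d (93746), a receptor gene known from hair follicles, at least 659-fold, and Lyg2, a lysozyme-like gene, at least 326-fold. Many hair keratins and keratin-associated proteins are close copies, and how the deposited estimates split reads between them is not given in the sources used here.

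The start regions of Krt34 and Tchh are shown because both genes had some of the largest ratios and both hold the core of a LEF/TCF site, the DNA motif of the factors that carry Wnt signals in the follicle. The sequences are from RefSeq (GRCm38.p6), run 5′ to 3′ in the gene's direction from 250 bases before the start to 50 after it, and lie at chr11:100041505-100041804 (minus strand) and chr3:93442080-93442379 (plus strand). Capitals mark matches on either strand to CTTTGAA, to CTTTGAT, to CTTTGTA or to CTTTGTT.
Krt34: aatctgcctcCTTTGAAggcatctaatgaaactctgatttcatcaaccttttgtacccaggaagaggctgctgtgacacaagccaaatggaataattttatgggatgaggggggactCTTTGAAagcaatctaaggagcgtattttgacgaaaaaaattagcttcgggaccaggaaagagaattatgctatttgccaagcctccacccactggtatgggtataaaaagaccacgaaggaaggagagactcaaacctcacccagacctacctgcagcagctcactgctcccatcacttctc
Tchh: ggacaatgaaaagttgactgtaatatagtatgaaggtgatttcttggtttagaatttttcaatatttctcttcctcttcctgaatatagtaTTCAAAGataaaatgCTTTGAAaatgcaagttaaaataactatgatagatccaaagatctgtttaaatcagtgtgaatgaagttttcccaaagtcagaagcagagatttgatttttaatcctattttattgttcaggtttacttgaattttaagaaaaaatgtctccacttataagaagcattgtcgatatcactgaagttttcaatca
In Krt34 the matches begin 240 and 133 bases before the start, and in Tchh 159 and 144 bases before it. RefSeq windows were found for 23 of the 28 list members, 26 windows in all, and 11 of them (42.3%) held a match, against 12.4% of 15805 windows of all genes. A match describes letters in the window and no binding was measured.

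Transcription factors of the follicle were also higher. Of 18 kept, 15 were at least 2-fold higher and 0 at least 2-fold lower, with a median log2 ratio of 1.82; 17 were above PBS in TSeL+L and 6 in TSeL. Msx2 (17702), a homeobox factor of the hair matrix, stood at 66.0, 69.4 and 64.0 CPM in TSeL+L, against 6.91, 6.66 and 7.48 CPM in TSeL and 3.23, 0.799 and 8.41 CPM in PBS, a 9.37-fold ratio. Hoxc13 (15422), which drives hair keratin genes, was 10.2-fold higher, Foxe1 9.93-fold, and Foxn1 (15218), the nude-mouse gene, 7.60-fold at 55.2, 55.6 and 49.3 CPM in TSeL+L, against 6.07, 8.05 and 6.56 CPM in TSeL. The TSeL value of each of these 4 genes lay within the PBS range. Dlx3 was 6.68-fold higher, and Lef1 (16842), the Wnt-responsive factor, was 5.78-fold higher and above PBS in both libraries.

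Wnt and hedgehog genes of the follicle, ligands and targets together, differed less. Of 20 Wnt and hedgehog genes kept, 6 were at least 2-fold higher and 1 lower, the median log2 ratio was 0.62, and 19 were above the PBS range in TSeL+L and 18 in TSeL. Shh (20423), the hedgehog ligand of the growing follicle, had 19.1, 18.2 and 19.4 CPM in TSeL+L, against 16.7, 16.3 and 18.4 CPM in TSeL and 5.92, 0.737 and 3.67 CPM in PBS. The ratio was 1.10, and both libraries were above every PBS sample. Its receptor and target Ptch1 had 111 CPM in TSeL+L and 77.4 CPM in TSeL, and the hedgehog effector Gli1 49.6 CPM in TSeL+L and 44.2 CPM in TSeL, against 23.0, 6.82 and 13.9 CPM of Gli1 in PBS. The Wnt ligands Wnt10b, Wnt3 and Wnt11 were 2.58-fold, 3.04-fold and 3.50-fold higher in TSeL+L, and above PBS in both libraries. Axin2, a general Wnt target, was 1.91-fold higher. Eda2r, an ectodysplasin-family receptor, was the 1 lower gene, 3.21-fold.

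Most melanocyte genes were above PBS in both libraries and all were higher in TSeL+L than in TSeL, while stem cell genes of the follicle were mixed. All 12 melanocyte genes had ratios above 1, against 44.4% of genes kept, and 7 were past 2-fold; in TSeL+L 12 and in TSeL 10 were above PBS. Slc45a2, a melanosome transporter, was 6.18-fold higher, Mlana 3.61-fold, and Tyr, the pigment enzyme tyrosinase, 2.77-fold, at 44.1 CPM in TSeL+L and at 15.9 CPM in TSeL, against 6.89, 1.11 and 5.33 CPM in PBS. Tyrp1, another pigment enzyme, differed 1.42-fold. Of 15 stem cell genes, 9 were above PBS and 5 below in TSeL+L, and 8 above and 4 below in TSeL; Lgr5, Krt15 and Foxc1 were 4.02-fold, 3.68-fold and 3.26-fold higher and Nfatc1, a factor of resting follicle stem cells, 2.10-fold lower. Of 17 sebaceous gland genes, 1 was past 2-fold higher and the median was 0.27, with 14 above PBS in TSeL+L and 11 in TSeL. All 32 cell cycle genes were above PBS in TSeL+L and 21 were in TSeL, against 35.9% and 37.5% of all genes kept. Between the libraries 0 of them were past 2-fold, and their median log2 ratio was 0.37. Mki67, a proliferation marker, stood at 247, 246 and 239 CPM in TSeL+L, against 163, 158 and 154 CPM in TSeL and 119, 92.1 and 132 CPM in PBS.

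In the outer epidermis most genes lay above the controls in TSeL+L, and most lay below them in TSeL. Of 28 suprabasal and cornified envelope genes kept, 20 were at least 2-fold higher in TSeL+L and 0 lower, with a median log2 ratio of 2.01. In TSeL+L 21 were above PBS and 6 below; in TSeL 0 were above and 21 below, and 14 genes were above PBS in TSeL+L and below it in TSeL, a pattern of 4.93% of all genes. The list took 1.67% of counts in TSeL+L and 0.360% in TSeL, against 0.730%, 0.858% and 0.684% in PBS.

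Krt10 (16661), the keratin of cells leaving the basal layer, had 3747, 3893 and 3750 CPM in TSeL+L, against 486, 491 and 484 CPM in TSeL and 758, 1165 and 1030 CPM in PBS, a 7.79-fold ratio. Flg (14246), filaggrin, which aggregates keratin and feeds skin moisture, stood at 1933, 2002 and 1800 CPM in TSeL+L, against 250, 252 and 244 CPM in TSeL and 527, 379 and 538 CPM in PBS, a 7.70-fold ratio. Both genes were above all PBS samples in TSeL+L and below all of them in TSeL. Flg2 (229574), its relative, was 48.0-fold higher, at 125, 121 and 123 CPM in TSeL+L, against 2.44, 2.71 and 2.19 CPM in TSeL and 12.9, 1.84 and 11.8 CPM in PBS. Cdsn and Dsg1a, adhesion proteins of the cornified layer, were 7.49-fold and 7.03-fold higher, Lor (loricrin) 6.20-fold, and Spink5, an inhibitor of skin proteases, 3.27-fold. Krt2, with 46 counts in TSeL+L and 1 in TSeL, had a ratio of 36.0 with an exact 95% interval of 6.15 to 1452. With the prior count used for the other genes its ratio was 14.1. Some members went the other way: Sprr1b, Sprr2d and Lce3c, envelope genes that are also raised in injured epidermis, were 1.55-fold, 1.3-fold and 1.79-fold lower and below PBS in both libraries. Cnfn, Tgm1 and Rptn were likewise below PBS in both, with ratios of 0.949, 1.32 and 1.14.

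Flg and Flg2 are neighbours on chromosome 3, and their start regions are shown because both hold 1 match to TGANTCA. This is a loose pattern for AP-1, the Fos and Jun factor pair that acts in keratinocyte differentiation. It takes any base at its centre. The usual AP-1 site has C or G there, whereas both matches here have A. They lie at chr3:93273296-93273595 and chr3:93197023-93197322, both on the plus strand, and capitals mark the match.
Flg: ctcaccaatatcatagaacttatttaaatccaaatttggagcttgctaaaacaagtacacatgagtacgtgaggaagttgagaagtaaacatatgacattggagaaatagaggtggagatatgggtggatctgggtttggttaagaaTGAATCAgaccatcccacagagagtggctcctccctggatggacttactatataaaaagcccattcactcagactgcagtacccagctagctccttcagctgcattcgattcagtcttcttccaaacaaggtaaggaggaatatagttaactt
Flg2: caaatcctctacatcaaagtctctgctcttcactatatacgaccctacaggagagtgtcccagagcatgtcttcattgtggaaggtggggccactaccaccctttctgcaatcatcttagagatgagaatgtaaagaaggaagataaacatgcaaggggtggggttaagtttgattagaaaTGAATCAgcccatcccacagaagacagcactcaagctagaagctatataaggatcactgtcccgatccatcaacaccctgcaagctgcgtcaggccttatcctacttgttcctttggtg
The match begins 103 bases before the start of Flg and 69 bases before that of Flg2. Of 26 windows found for 24 of the 28 members, 8 (30.8%) held this loose pattern on either strand, against 6.03% of all windows. The narrower site was not counted.

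Basal and wound keratinocyte genes did not follow the outer layer. Of 12 basal genes 1 was past 2-fold, Krt15, and the median log2 ratio was -0.14, or 0.2 under scaling by library totals. Of 18 wound keratinocyte genes kept, 6 were at least 2-fold lower in TSeL+L and 0 higher, with a median of -0.80. In TSeL+L 17 were below PBS and in TSeL 13. S100a8, S100a9 and Lcn2 of this list are also on the neutrophil list given below, so the lists are not separate. Krt16, a keratin of activated epidermis, was 2.42-fold lower, at 872 CPM in TSeL+L and at 2109 CPM in TSeL, against 2287, 3265 and 1576 CPM in PBS. Krt6a, its partner, had 687, 663 and 659 CPM in TSeL+L, against 1111, 1079 and 1083 CPM in TSeL and 2290, 3580 and 1935 CPM in PBS.

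**Figure D3:**
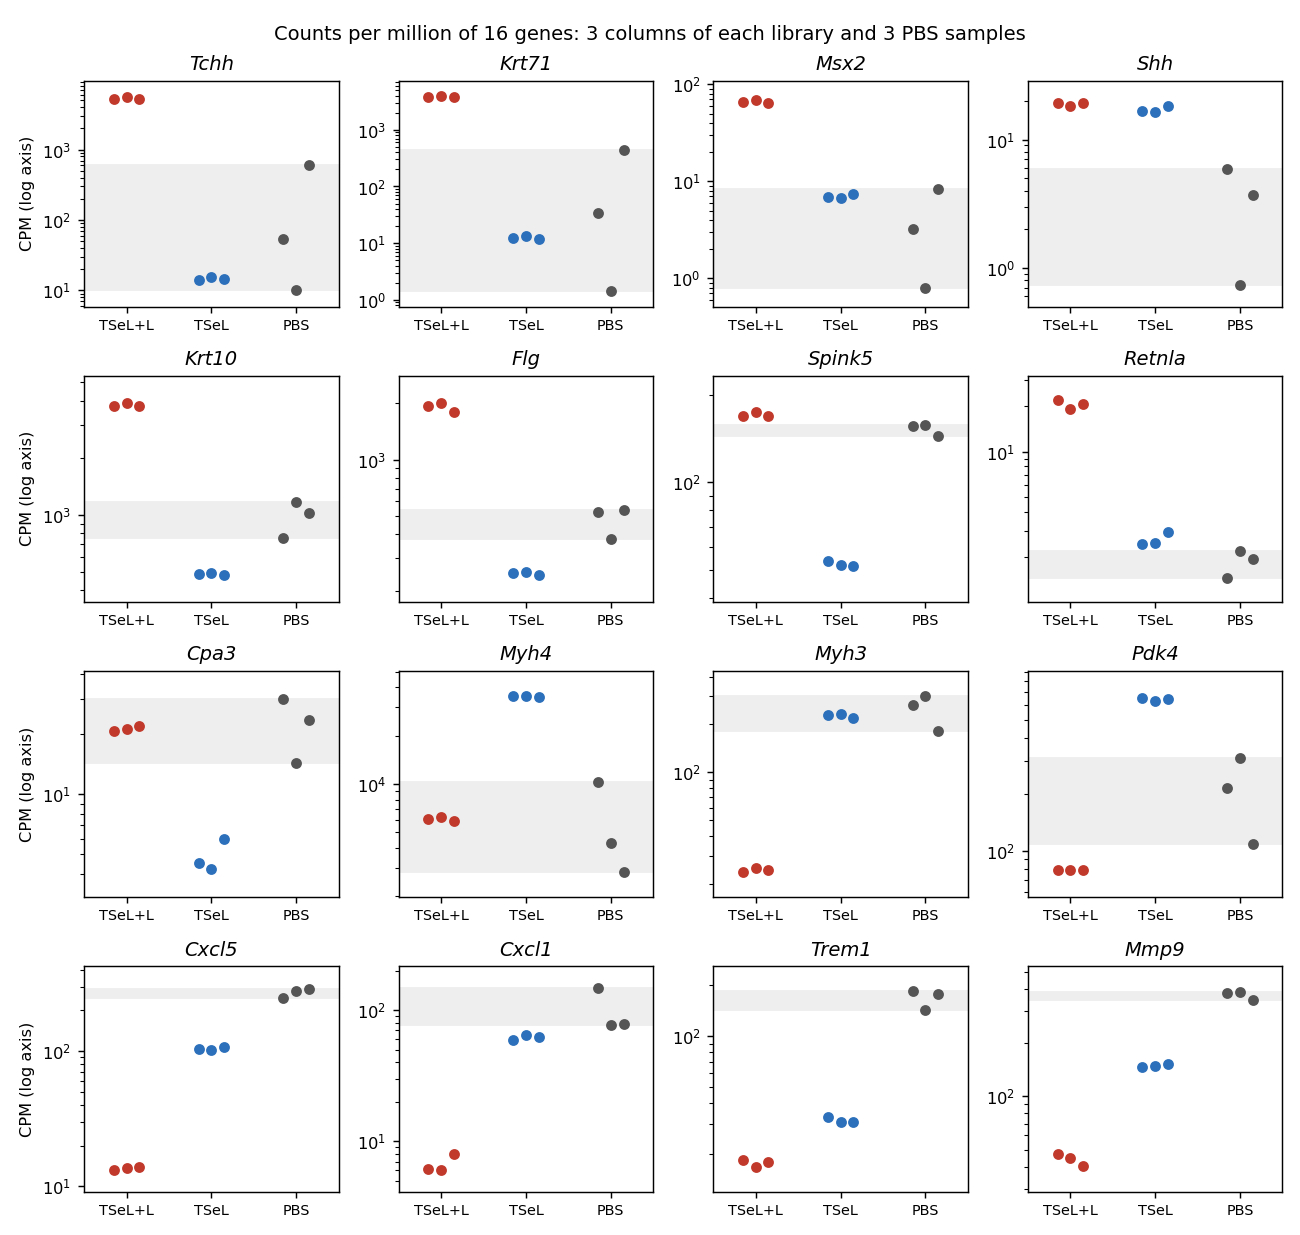
CPM on log axes of 16 genes in the 3 near-repeat columns of TSeL+L (red) and of TSeL (blue) and in 3 PBS samples (grey, with their range shaded). Krt10 and Flg are above the shaded range in TSeL+L and below it in TSeL, Myh4 is within it in TSeL+L and above it in TSeL, and Cxcl5 is below it in both.

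Skeletal muscle genes were the other large group, and here TSeL stood outside the controls. All 29 sarcomere genes and all 17 genes of muscle calcium handling and metabolism were at least 2-fold lower in TSeL+L, both with a median log2 ratio of -2.26. Sarcomere genes took 3.22% of counts in TSeL+L and 12% in TSeL, against 4.17%, 3.11% and 1.63% in PBS. In TSeL all 29 and all 17 were above PBS, while in TSeL+L 24 of 29 and 15 of 17 were within it. The ratios were alike across the sarcomere, from 3.44-fold to 5.95-fold lower. Start regions of the sarcomere list were also searched, for a loose pattern of the muscle factor MEF2. Of 25 windows found for 22 of the 29 members, 2 (8.0%) held it, against 3.2% of all windows. With only 2 windows holding it, this share says little.

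Myh4 (17884), the fast IIb myosin, had 6021, 6190 and 5905 CPM in TSeL+L, against 35582, 35216 and 34857 CPM in TSeL and 10231, 4295 and 2813 CPM in PBS, 5.83-fold lower. Ttn (22138), the giant spring protein titin, stood at 2288, 2333 and 2314 CPM in TSeL+L, against 9479, 9271 and 9277 CPM in TSeL and 2611, 1804 and 1050 CPM in PBS. Atp2a1, the calcium pump of fast fibres, was 4.93-fold lower and Pygm, which breaks down muscle glycogen, 6.05-fold lower. For these genes every TSeL column exceeded each PBS sample and the TSeL+L columns fell among them. The slow-fibre genes Myh7 and Myl2, 5.87-fold and 4.60-fold lower, were above PBS in both libraries.

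Genes of muscle formation departed from that pattern. Of 14 kept, 13 were at least 2-fold lower, with a median log2 ratio of -2.06, but 12 were below PBS in TSeL+L, and in TSeL 6 were above it and 7 below. Myh3 (17883), the embryonic myosin made by new fibres, had 23.5, 24.9 and 24.2 CPM in TSeL+L, against 228, 231 and 218 CPM in TSeL and 266, 304 and 181 CPM in PBS, 9.28-fold lower. TSeL lay within PBS and TSeL+L below every PBS sample. Myog, a factor of muscle differentiation, had 5.80 CPM in TSeL+L and 23.6 CPM in TSeL, against 36.9, 42.5 and 31.7 CPM in PBS, and Myod1, which commits cells to muscle, had 3.56 CPM in TSeL+L and 16.6 CPM in TSeL, against 9.21, 7.25 and 9.35 CPM in PBS. Actc1, the heart and fetal actin, was 12-fold lower, at 7.42, 8.79 and 7.32 CPM in TSeL+L, against 93.5, 95.7 and 96.6 CPM in TSeL and 107, 144 and 93.4 CPM in PBS.

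The lowest ratio of the named genes belonged to Igfn1 (226438), a sarcomere-associated gene, 70.2-fold lower at 6.89, 8.02 and 6.88 CPM in TSeL+L, against 526, 517 and 513 CPM in TSeL and 459, 117 and 36.5 CPM in PBS. The PBS samples spread widely for it, and TSeL+L was below the lowest. Mss51, a muscle gene, was 22.1-fold lower, Col22a1, a collagen of muscle-tendon junctions, 21.4-fold, Prkag3, a muscle subunit of the energy sensor AMPK, 10.3-fold, and Mybph, a myosin-binding protein, 10-fold. Hoxc10, a body-position gene, was 17.3-fold lower at 9 counts in TSeL+L and 149 in TSeL. Msln, a gene of mesothelium, was 11.3-fold lower. Alb, the serum albumin gene, was among the lowest at 17.6-fold, but the TSeL columns differed among themselves: 1.54, 48.5 and 57.4 CPM, against 2.30, 1.38 and 2.05 CPM in TSeL+L and 6.40, 4.55 and 4.85 CPM in PBS. With the first column of each alone, its log2 ratio relative to all genes was 0.61.

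**Figure D4:**
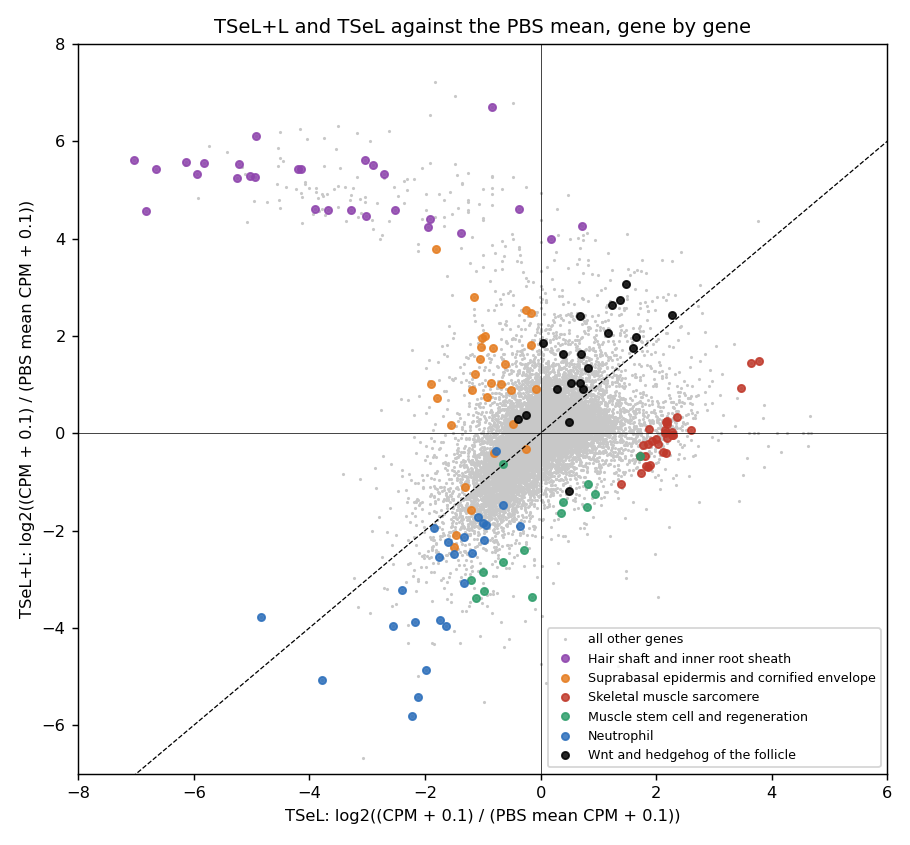
Each gene's log2 ratio to the PBS mean in TSeL+L (vertical) and TSeL (horizontal), with 0.1 CPM added to each value; coloured points are members of 6 lists and the dashed line marks equal values. Hair shaft genes lie far above the line, sarcomere genes at 0 on the vertical axis and about 2 on the horizontal, and most muscle formation and neutrophil genes below the line, with Prok2, Hcar2 and Megf10 on or above it.

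Energy metabolism was lower in TSeL+L alongside muscle. Of 23 glycolysis and hypoxia genes 13 were at least 2-fold lower and 0 higher, with a median log2 ratio of -1.25. In TSeL+L 16 of them were below PBS and 6 within it, and in TSeL 11 were above it and 7 below. The lactate exporter Slc16a3 and the enzymes Aldoa and Gapdh were 3.48-fold, 3.87-fold and 3.31-fold lower. Gapdh stood at 2470 CPM in TSeL+L and at 8166 CPM in TSeL, against 3279, 3066 and 2164 CPM in PBS. Of 33 respiratory chain genes 13 were at least 2-fold lower, all 33 had ratios below 1 (55.6% of genes kept), and all 33 were above PBS in TSeL, whereas 26 were within it in TSeL+L. Of 25 genes of fatty acid oxidation 12 were at least 2-fold lower, led by Pdk4 (27273), which shuts glucose carbon out of the mitochondria, 8.08-fold lower at 79.3, 79.2 and 78.9 CPM in TSeL+L, against 651, 627 and 643 CPM in TSeL and 215, 310 and 109 CPM in PBS. The share of sarcomere counts moved the same way, at 3.22% in TSeL+L and 12% in TSeL, and its part in these lists was not tested.

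Clock genes were also lower. Of 17, 9 were at least 2-fold lower in TSeL+L and 0 higher, with a median log2 ratio of -1.05. Dbp and Per2, outputs and parts of the feedback loop, were 3.43-fold and 2.90-fold lower, while Arntl, the driver of the loop, had 30.6 CPM in TSeL+L and 30.3 CPM in TSeL. Per2 was below PBS in both libraries and Dbp above it in TSeL. The labels give no hour of collection.

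Genes of sterol and fatty acid synthesis went the other way. Of 24 sterol and fatty acid synthesis genes 4 were at least 2-fold higher and 0 lower, with a median log2 ratio of 0.58; 19 were above PBS in TSeL+L and 8 in TSeL. Fasn, fatty acid synthase, was 4.39-fold higher, at 744 CPM in TSeL+L and at 169 CPM in TSeL, against 132, 143 and 152 CPM in PBS. Acaca, the step before it, was 2.63-fold higher. White adipocyte genes were mixed: of 18 kept, 12 had ratios above 1, 4 were at least 2-fold higher and 2 at least 2-fold lower, with a median log2 ratio of 0.44. Lep, the fat-cell hormone leptin, was 6.89-fold higher, at 4.54 CPM in TSeL+L and at 0.559 CPM in TSeL, while Slc2a4, an insulin-responsive glucose transporter that muscle also uses, was 3.49-fold lower and Plin4, a lipid droplet protein, 2.53-fold lower.

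Most neutrophil genes were lower in TSeL+L and low in both libraries. Of 24 kept, 22 had ratios below 1, 12 were at least 2-fold lower and 1 higher, with a median log2 ratio of -1.10; all 24 were below PBS in TSeL+L and 19 in TSeL. The 1 higher gene, Prok2, had 10 counts in TSeL+L and 3 in TSeL, a ratio of 2.61 with an exact 95% interval of 0.672 to 14.7. S100a8, a calcium-binding protein abundant in neutrophils and activated keratinocytes, was 2.91-fold lower, at 589, 590 and 619 CPM in TSeL+L, against 1724, 1760 and 1743 CPM in TSeL and 2685, 2466 and 1560 CPM in PBS. Ngp, a granule protein, was 7.33-fold lower, and Mmp9, a matrix protease carried in granules, 3.34-fold. Trem1 (58217), a receptor that amplifies myeloid signals, differed 1.77-fold, at 18.5, 16.8 and 17.9 CPM in TSeL+L, against 32.9, 30.9 and 30.8 CPM in TSeL and 183, 143 and 177 CPM in PBS. Elane, a protease of immature neutrophils, had 2 counts in TSeL+L and 28 in TSeL, a ratio of 0.0559 with an exact 95% interval of 0.00645 to 0.222.

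Chemokines were mixed. Of 27 kept, 7 were at least 2-fold higher and 6 lower, with a median log2 ratio of -0.18, a sign that turned under scaling by library totals. The neutrophil attractants Cxcl1 (14825), Cxcl5 (20311) and Cxcl3 were 9.05-fold, 7.61-fold and 4.71-fold lower. Cxcl1 stood at 6.14, 6.03 and 7.99 CPM in TSeL+L, against 59.3, 64.2 and 62.2 CPM in TSeL and 147, 76.9 and 78.0 CPM in PBS, and Cxcl5 at 13.3, 13.7 and 13.8 CPM in TSeL+L, against 104, 102 and 107 CPM in TSeL and 248, 277 and 290 CPM in PBS. For both, TSeL was below PBS and TSeL+L lower still. The other genes past 2-fold lower were Ccl20, Ccl22 and Cxcl16, which attract lymphocytes and dendritic cells, at 3.05-fold, 2.59-fold and 2.14-fold. Cxcl2, of the Cxcl1 family, differed 1.35-fold, and the monocyte attractants Ccl2 and Ccl7 had ratios 1.66-fold and 1.69-fold lower. Ccl12, Ccl8 and Ccl11, which also attract monocytes or eosinophils, were 3.48-fold, 2.14-fold and 2.09-fold higher, within PBS in TSeL+L and below it in TSeL, and Cxcl14, made by epithelium, was 2.93-fold higher.

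The start region of Cxcl1 is shown because it holds 2 matches to GGG, then 2 bases of any kind, then TTTCC, a pattern of NF-kappaB, the factor that switches on inflammatory genes. It lies at chr5:90890995-90891294 on the plus strand, and capitals mark the matches.
Cxcl1: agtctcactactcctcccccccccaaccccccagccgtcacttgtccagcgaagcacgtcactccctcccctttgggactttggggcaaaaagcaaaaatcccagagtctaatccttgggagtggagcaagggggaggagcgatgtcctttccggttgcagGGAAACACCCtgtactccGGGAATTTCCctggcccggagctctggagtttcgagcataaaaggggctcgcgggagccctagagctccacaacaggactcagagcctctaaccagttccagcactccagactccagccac
The matches begin 89 and 71 bases before the start, the first on the reverse strand. Of 21 windows found for 19 of the 27 members, 5 (23.8%) held the pattern on either strand, against 1.73% of all windows.

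Cytokines of the same setting were mixed. Of 25 kept, 8 were at least 2-fold lower and 2 higher. Il17a and Csf3, which drive neutrophil production, were 7.14-fold and 5.14-fold lower, and Il6 2.96-fold lower at 2.67, 3.26 and 2.83 CPM in TSeL+L, against 9.07, 8.95 and 8.40 CPM in TSeL and 48.5, 14.3 and 35.5 CPM in PBS. Il1b differed 1.16-fold and was below PBS in both libraries, and Tnf differed 1.08-fold and was within PBS in both. Il1f8, an epithelial member of the interleukin-1 family, was 5.24-fold higher. Of 19 matrix degradation genes 6 were at least 2-fold lower, with Mmp13 5.01-fold and Mmp19 4.28-fold lower. Mmp8 and Mmp9, among these 6, are also on the neutrophil list, so the lists are not separate.

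Macrophage genes as a list had a median log2 ratio of -0.06, or 0.29 under scaling by library totals, with 3 of 23 at least 2-fold higher and 4 lower. Spp1 (osteopontin) and Cd14 were 5.59-fold and 3.12-fold lower and below PBS in both libraries. Among genes of alternative activation, 4 of 15 were higher and 4 lower past 2-fold. Retnla (57262), induced by interleukin-4, was 7.5-fold higher at 22.1, 19.3 and 20.7 CPM in TSeL+L, against 2.44, 2.5 and 2.96 CPM in TSeL and 1.46, 2.21 and 1.95 CPM in PBS. Both libraries were above PBS. Cd163 and Folr2, of resident macrophages, were 2.91-fold and 2.73-fold higher, and Arg1 was 1.67-fold lower.

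Most mast cell genes and interferon-stimulated genes were below PBS in TSeL, and more of them lay within it in TSeL+L. Of 13 mast cell genes 7 were at least 2-fold higher and 0 lower, with a median log2 ratio of 1.13; in TSeL+L 6 were within PBS and 6 below it, and in TSeL 12 were below it. Cpa3, a granule protease, had 20.8, 21.3 and 22.1 CPM in TSeL+L, against 4.54, 4.23 and 6 CPM in TSeL and 30.1, 14.3 and 23.6 CPM in PBS, a 4.29-fold ratio, and Mcpt4 differed 2.44-fold. Hdc, which makes histamine and is also on the neutrophil list, went the other way, at 62.1 CPM in TSeL+L and at 96.8 CPM in TSeL, against 318, 270 and 292 CPM in PBS, as did Gata2 and Mcpt8, at 1.42-fold and 1.32-fold lower, and Mcpt1 differed 1.19-fold. All 20 interferon-stimulated genes had ratios above 1, 4 of them past 2-fold with Ifit1 at 2.71-fold; 16 were within PBS in TSeL+L and 17 below it in TSeL. The controls spread widely for Ifit1, at 7.93, 5.71 and 36.2 CPM in PBS replicates 1, 2 and 3.

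Selenoproteins showed little difference as a list. Of 27 kept, 2 were at least 2-fold higher and 1 lower, against 7.07% and 9.03% of all genes kept, so the list did not stand out. Its median log2 ratio was -0.03, or 0.31 under scaling by library totals. Selenow, abundant in muscle, was 2.85-fold lower, and Gpx2, a glutathione peroxidase of epithelium, 2.29-fold higher. Dio3, which inactivates thyroid hormone, had 52 counts in TSeL+L and 3 in TSeL, a ratio of 13.6 with an exact 95% interval of 4.39 to 67.9. Selenop, the selenium carrier, differed 1.63-fold. Fibroblast genes were below PBS in both libraries, 22 of 25 in TSeL+L and 25 in TSeL, with 1 past 2-fold between them; Col1a1, the main collagen of dermis, had 4498, 4486 and 4288 CPM in TSeL+L, against 5167, 5103 and 5062 CPM in TSeL and 10114, 11113 and 12976 CPM in PBS.

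Most genes of wound contraction and repair were below PBS in both libraries and lower in TSeL+L. Of 17 myofibroblast genes 6 were at least 2-fold lower and 0 higher, with a median log2 ratio of -0.80; 15 were below PBS in each library. Tnc (tenascin C), a matrix protein of healing wounds, was 4.25-fold lower, at 257 CPM in TSeL+L and at 1092 CPM in TSeL, against 1844, 2160 and 2524 CPM in PBS. Among blood endothelial genes 2 of 20 were past 2-fold, both lower, a share close to the 9.03% of all genes kept that were at least 2-fold lower. Of these 2, Sele, the adhesion molecule E-selectin that slows leukocytes, had 10.3 CPM in TSeL+L and 22.0 CPM in TSeL, against 106, 110 and 80.3 CPM in PBS.

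Most complement and acute phase genes had ratios above 1. Of 19 kept, 15 did, against 44.4% of all genes kept, and the median log2 ratio was 0.63. At least 2-fold higher were 5 and lower 3, against 7.07% and 9.03% of all genes kept. Below PBS were 14 in TSeL+L and 15 in TSeL. The complement genes C4b, C2 and C1qb were 3.08-fold, 2.41-fold and 2.06-fold higher, and Lbp, which binds bacterial lipopolysaccharide, 3.62-fold higher, while the 3 lower genes were the serum amyloid genes Saa1, Saa2 and Saa3. Saa3, the form made in inflamed tissue, had 160 CPM in TSeL+L and 463 CPM in TSeL, against 1217, 1217 and 777 CPM in PBS. Of 20 immediate early genes, which respond within minutes to signals or handling, 5 were at least 2-fold lower and 1 higher; Nr4a1, a nuclear receptor, was 6.21-fold lower, at 42.5 CPM in TSeL+L and at 265 CPM in TSeL, against 262, 134 and 99.7 CPM in PBS. Of 18 heat shock genes 5 were at least 2-fold lower, among them Cryab and Hspb7, small heat shock proteins abundant in muscle, at 4.26-fold and 4.35-fold. No gene of the T cell list (15 kept) or the B cell list (7 kept) was past 2-fold in either direction, against 16.1% of all genes kept. In lists this short that share amounts to few genes, so the absence says little about these cells. Of the 7 B cell genes, 3 had only 1 to 3 counts in TSeL.

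The TL+L and PBS samples enter neither side of the ratio, so TL+L over PBS can be set beside it. Across 15791 genes, which are not independent replicates, the log2 ratio of TSeL+L over TSeL and that of TL+L over PBS had a Pearson correlation of 0.75; the 8 libraries share one scaling. Of the 1117 genes higher in TSeL+L, 724 (64.8%) were at least 2-fold higher in TL+L over PBS, against 7.75% of all genes, and of the 1426 lower, 472 (33.1%) were at least 2-fold lower, against 10.4%. Hair shaft genes were higher in both, while sarcomere genes had medians of -1.93, 0.43 and -0.83 in the 3 TL+L samples over the PBS mean. The outer epidermis list, with a median of 2.01 in TSeL+L over TSeL, had 0.52, 0.68 and 1.06 in TL+L.

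**Figure D5:**
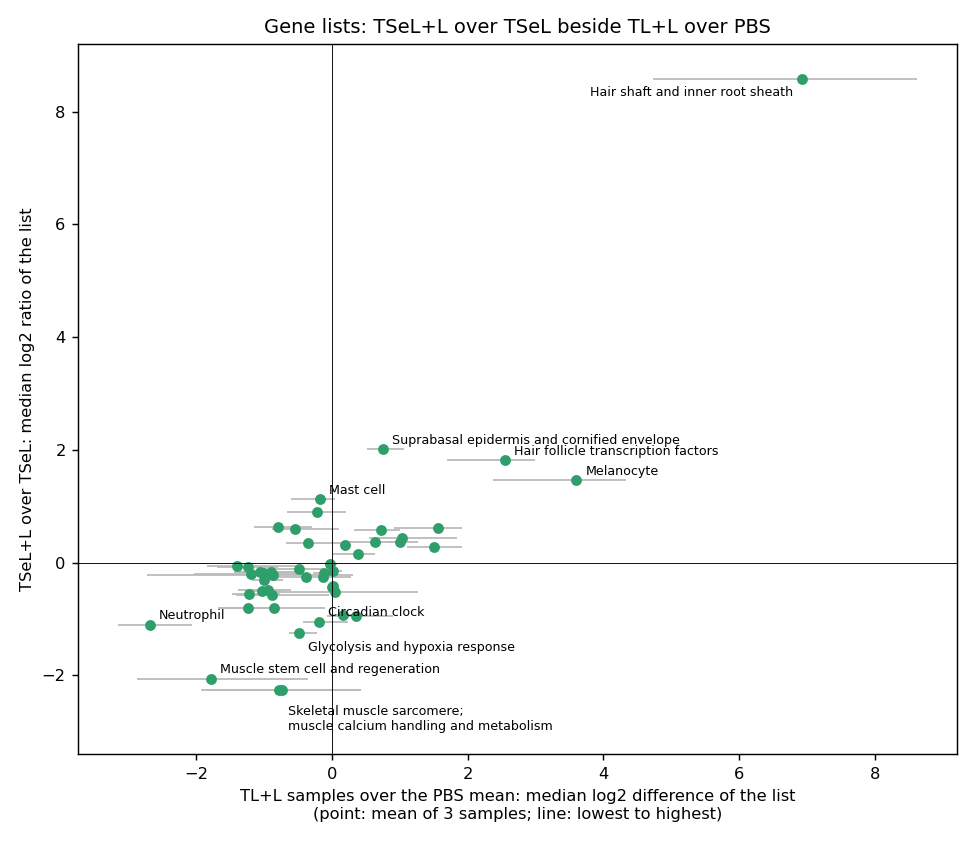
Median log2 ratio of 48 gene lists in TSeL+L over TSeL (vertical) and in the TL+L samples over the PBS mean (horizontal; point, mean of 3 samples; line, lowest to highest); lists with a median of at least 1 in either direction are named. Hair shaft genes lie at the top right (8.57 vertically), and muscle lists at the bottom with lines that cross or approach 0.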

How the data were processed

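Per the labels' protocols, RNA was taken from skin with Trizol, selected on oligo-dT beads and turned into TruSeq libraries. The deposited values are expected counts per gene made by the authors, with Bowtie2 and RSEM named in the submitters' processing notes; no version, genome build, annotation or strand setting is given in the sources used here. As deposited 88.74% of the values were whole numbers (tolerance 0), and all were rounded. The transcript table was not used here.

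The 3 columns of TSeL+L and of TSeL were averaged after pairs of columns were compared by chi-square (genes of 40 counts or more). TMM factors were computed over 8 libraries with edgeR 4.0.16 in R 4.3.3 (1.08 in TSeL+L, 0.852 in TSeL), genes were filtered with filterByExpr, and log2 CPM used a prior count of 2. The ratio step was tested on simulated data. With 1 library a side no test was made. Exact intervals are Clopper-Pearson at 95% and, like the floor of 3 counts per averaged library, cover counting error only.

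The comparison, the 49 gene lists and the panel were chosen with earlier results of these data known. Named genes were, by rule, the 8 highest and 8 lowest ratios with at least 10 CPM in the higher library and without predicted-gene symbols (at most 2 per symbol root), the 6 of each on opposite sides of PBS, 5 members of each of the 12 lists with the largest medians, and the panel; other list members were named after their values were seen. Of 882 list genes, 869 were found in the table. Alternatives were DESeq2 1.42.0 size factors, library totals, TMM without hair and muscle genes, no filter, at least 5 CPM, prior counts of 0.5 and 10, 1 column of each, and each PBS sample left out.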

Additional observations from a re-analysis of the deposited data

How the results depend on the processing

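Scaling by library totals was the setting that moved the counts most. It gave 1817 higher and 869 lower genes past 2-fold, 1372 higher genes above PBS in TSeL+L but not in TSeL (830 with TMM), and 233 lower genes below PBS in TSeL+L but not in TSeL (527 with TMM), with 67.6% of genes past 2-fold on the higher side against 43.9%. The other settings kept these counts within 1.5 times. Leaving out 1 PBS replicate gave 783 to 818 such higher genes, 508 to 768 such lower genes, and 799 to 1089 genes past 2-fold on opposite sides of PBS; the 1089 came without replicate 3.

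List and gene values were compared relative to the median of all genes. A change of scaling shifts all genes nearly alike, so it largely cancels in this comparison, and agreement under it tells little. Glycolysis and hypoxia genes had a median of -1.08 with a prior count of 10, -1.09 with the first column of each and -1.07 with the third; mast cell genes had 0.84 with a prior count of 10 and 0.77 with the third columns; outer epidermis genes had 1.97 with the second columns. Of 490 list medians under the alternatives 468 moved by less than the spread between PBS samples, 22 moved more, and 0 of those at least 2-fold in size changed sign; for 1027 values of named genes these numbers were 1020, 6 and 1. The 1 was Alb, at 0.61 with the first columns, where 1 TSeL column differs from the other 2. Not set against the median of all genes, every list median that lay from -0.3 to -0.03 with TMM was above 0 with library totals. The T cell, B cell, erythroid, lymphatic endothelium and antioxidant lists were among these. Fibroblast genes went from -0.21 to 0.14 and matrix degradation genes from -0.3 to 0.04. Immediate early genes went from -0.26 to 0.08 and inflammasome genes from -0.16 to 0.18. No paired analysis was possible because each side is 1 library: all TSeL+L columns carry the number 1 and all TSeL columns the number 2, so the sides share no number.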

Other observations

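The 3 TSeL columns differed among themselves at several genes that the liver is known to express, picked out after their values were seen. Alb had 22, 699 and 813 counts in the 3 TSeL columns, against 43, 25 and 37 in the TSeL+L columns and 105, 74 and 82 in PBS. Serpina3k had 0, 97 and 109 counts in TSeL, against 6, 4 and 7 in TSeL+L. Apoa1 had 3, 59 and 87 counts in TSeL, against 0, 0 and 2 in TSeL+L, and Ttr had 1, 43 and 58 counts in TSeL, against 1, 0 and 0 in TSeL+L. Alb also had 409 counts in TL+L replicate 1, with 80 in replicate 2 and 69 in replicate 3. Of genes with a mean of at least 1 CPM, 110 of 14411 (0.763%) differed 2-fold or more between TSeL columns and 38 of 14467 (0.263%) between TSeL+L columns. Ratios of these genes between TSeL+L and TSeL therefore depend on which columns are used.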
